A study of Mus musculus with 12 samples.

Results

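The genes described here encode metalloproteinases, which are zinc-dependent enzymes that cut proteins outside the cell or at its surface, together with their tissue inhibitors and the related ADAMTS-like proteins. They were taken by symbol as every row of the count table named Mmp, Adam or Adamts with a number and at most 1 further letter, Adamtsl with a number, or Timp1 to Timp4. This gave 84 of the 49568 genes in the table. They comprise 4 inhibitors (Timp), 6 membrane-type matrix metalloproteinases, 17 other matrix metalloproteinases (Mmp), 33 ADAM genes, 19 ADAMTS genes and 5 ADAMTS-like genes. RNA was sequenced from cardiomyocytes of male mice in 4 groups of 3 libraries, made up of 2 genotypes that each had sham surgery or TAC, a narrowing of the aorta that puts the left ventricle under pressure. Control mice carried the genotype alphaMHC-MerCreMre/+, a tamoxifen-inducible Cre recombinase driven by a cardiomyocyte promoter. The double knockout mice (dKO) carried MHC-MerCreMre/+ with Mrtf-a-/- and Mrtf-bflox/flox, so that factor A was absent from every cell of the body and factor B was removed only where Cre acts. Myocardin-related transcription factors are cofactors of serum response factor. Both genotypes received 3 tamoxifen injections of 30 ug/g from 8 weeks of age, per the labels' protocols, so Cre and tamoxifen were common to all 4 groups. Hearts were taken at 11 weeks, 7 days after surgery.

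Matrix metalloproteinases (MMPs) degrade collagens, gelatin and other matrix proteins. Most are secreted, and the membrane-type members stay on the cell surface, where they can also activate secreted members. ADAM proteases are anchored in the membrane and release growth factors, cytokines and receptors from the cell surface, a step called shedding. ADAMTS proteases are secreted and process procollagens, large proteoglycans or thrombospondins, whereas ADAMTS-like proteins share their accessory domains and lack the protease. The 4 TIMP proteins bind the active site of MMPs and of some ADAM and ADAMTS proteases. In the heart these genes are known for matrix turnover after injury and pressure load, and much of their expression there comes from fibroblasts and inflammatory cells.

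The shared chemistry of the proteases is visible in their coding sequence. A stretch of 33 bases encodes 3 histidines that hold the zinc ion and a glutamate that takes part in catalysis, with fixed spacing of the other codons. It was found in the GENCODE transcripts of 62 of the 84 genes, namely in all 23 MMP genes, all 19 ADAMTS genes and 20 of 33 ADAM genes, and in none of the 4 inhibitors or 5 ADAMTS-like genes. The stretches below belong to the 12 proteases whose RNA changed after TAC in at least 1 genotype, and show how members of different classes share this core while the bases between differ. Capitals mark the 3 histidine codons and the glutamate codon. Coordinates are GRCm38, the stretches lie in coding exons, and those of the ADAMTS genes span an intron that is left out of the printed sequence.
Mmp14, chr14:54437627-54437659, + strand: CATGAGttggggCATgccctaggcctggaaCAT
Mmp15, chr8:95368585-95368617, + strand: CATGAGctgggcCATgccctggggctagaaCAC
Mmp19, chr10:128795673-128795705, + strand: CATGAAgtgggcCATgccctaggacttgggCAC
Mmp23, chr4:155651528-155651560, - strand: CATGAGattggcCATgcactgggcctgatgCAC
Adam9, chr8:24990326-24990358, - strand: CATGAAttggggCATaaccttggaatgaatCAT
Adam12, chr7:133961158-133961190, - strand: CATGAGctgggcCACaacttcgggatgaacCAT
Adam19, chr11:46125050-46125082, + strand: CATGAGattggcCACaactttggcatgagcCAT
Adamts2, chr11:50775403-50776134, + strand: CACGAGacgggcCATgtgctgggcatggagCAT
Adamts4, chr1:171253210-171253915, + strand: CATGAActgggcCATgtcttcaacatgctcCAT
Adamts7, chr9:90179456-90180640, + strand: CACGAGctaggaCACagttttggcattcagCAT
Adamts8, chr9:30952721-30953378, + strand: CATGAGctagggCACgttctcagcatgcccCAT
Adamts20, chr15:94353678-94355296, - strand: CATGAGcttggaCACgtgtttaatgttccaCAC
Of the 13 ADAM genes without the stretch, 3 were expressed enough to be tested (Adam11, Adam22 and Adam23), against 9 of the 20 with it. None of those 3 passed the test over all 12 libraries in any comparison.

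Libraries held between 20082000 and 29675212 counts, so that 3 counts, used here as a detection floor, correspond to 0.0935 to 0.184 CPM (read counts normalised to library size, with TMM scaling). The floor covers counting error only. The targeted genes went with the labels, since Mkl1, which encodes factor A, had 7.59 to 16 CPM in the 6 control libraries and 2.15 to 3.2 in the 6 dKO libraries, and Mkl2 (factor B) 30.1 to 44.1 against 15.2 to 28.1. The cell type label was checked on marker lists. The 8 cardiomyocyte markers summed to between 39399 and 107726 CPM, and every marker of the fibroblast, endothelial, macrophage and smooth muscle lists was detected as well. The 10 fibroblast markers summed to 980 to 1771 CPM after sham and 1512 to 10520 after TAC in control, and to 1080 to 1524 and 3279 to 4214 in dKO. Macrophage markers summed to 155 to 327, 215 to 678, 241 to 295 and 255 to 457 CPM in the same order. After TAC 4 of 10 fibroblast markers rose in each genotype and Gsn fell in dKO. No macrophage marker passed by edgeR, with 7 of 10 in control and 1 in dKO at an unadjusted p under 0.05, and DESeq2 called Fcgr1 in both. Neutrophil markers stayed between 0.411 and 6.4 CPM, and the defining marker Ly6g was at 0 in all 12 libraries. In RNA from many cells, fewer cells of a type and less RNA per cell cannot be told apart. Within control TAC the fibroblast sum was 1512 in replicate 1, 4104 in replicate 2 and 10520 in replicate 3. Some members described below followed that order and others did not. The part of these cells in the results was not tested. Libraries dKO sham replicate 1 and dKO TAC replicate 2 stood apart from their groups, with mitochondrial genes at 16.5% and 15.3% of counts against 23.2% to 32.6% elsewhere, and calls that change without them are given both ways. Without the pair no called member changed sign, and the sign of the estimate turned for 0 of 51 members for TAC in control, 4 for TAC in dKO, 6 for dKO against control after sham, 9 after TAC and 7 for the interaction.

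**Figure D1:**
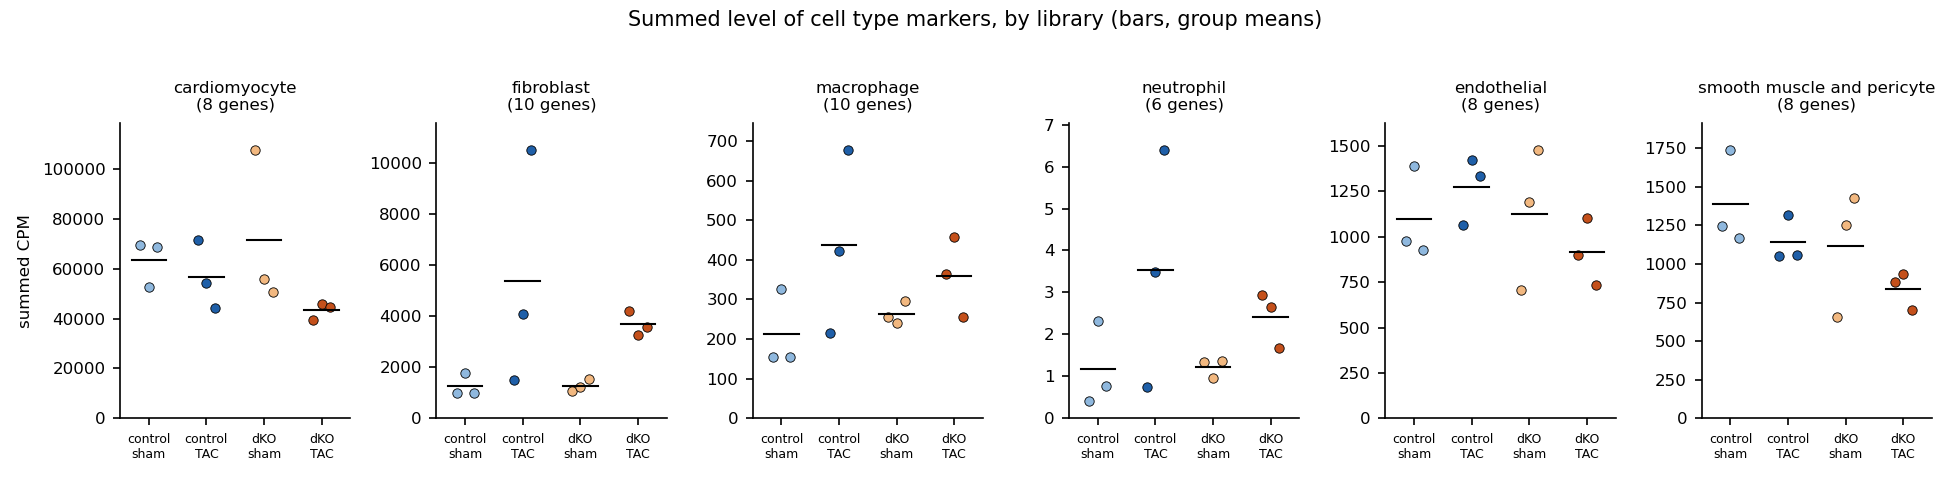
Summed CPM of the markers of 6 cell types (vertical axes, starting at 0) in the 4 groups, with 1 point per library and bars at group means. Fibroblast markers reach 10520 CPM in control TAC replicate 3, and 3279 to 4214 in dKO TAC, against at most 1771 after sham.

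Per exon length, inhibitors made up a large share of the expressed members. Levels of different genes are compared as CPM per kilobase of exon. Over all libraries the highest was Timp3, an inhibitor that binds the matrix, at 34.7 CPM per kb. It was followed by Adamtsl5 (24.0), an ADAMTS-like protein, Mmp2 (22.9), the gelatinase that degrades basement membranes and denatured collagen, Adamts1 (21.1), a versican-cleaving protease, and Timp2 (19.9), which also helps to activate Mmp2. Timp3 had 42.5 ± 7.62 (SD, n = 3) CPM per kb after sham and 41.5 ± 7.86 after TAC in control, and 27.8 ± 9.32 and 27.1 ± 6.58 in dKO. Mmp2 had 10.2 ± 3.2, 40.9 ± 43.7, 10.3 ± 2.14 and 30.4 ± 10.3 in the same order, so that its spread after TAC in control was as wide as its mean. Summed by class, the 4 inhibitors gave 74.7 ± 16.4 CPM per kb in control sham and 101 ± 36.2 in control TAC, with overlapping libraries. In dKO they gave 40.4, 53.4 and 57.9 after sham and 83, 115 and 68.4 after TAC, which do not overlap. The 23 MMP genes gave 36.8 ± 7.06 and 78.1 ± 51.6 in control, and 36.9 ± 3.15 and 58.9 ± 6.79 in dKO. In the dKO hearts all 3 TAC libraries lay above all 3 sham libraries for this sum too. Single genes held much of both rises in dKO. Timp1 went from a mean of 1.98 CPM per kb after sham to 36.6 after TAC, and Mmp2 from 10.3 to 30.4. All 84 genes together gave 196 to 248 CPM per kb after sham and 233 to 467 after TAC in control, and 165 to 216 and 287 to 304 in dKO.

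**Figure D2:**
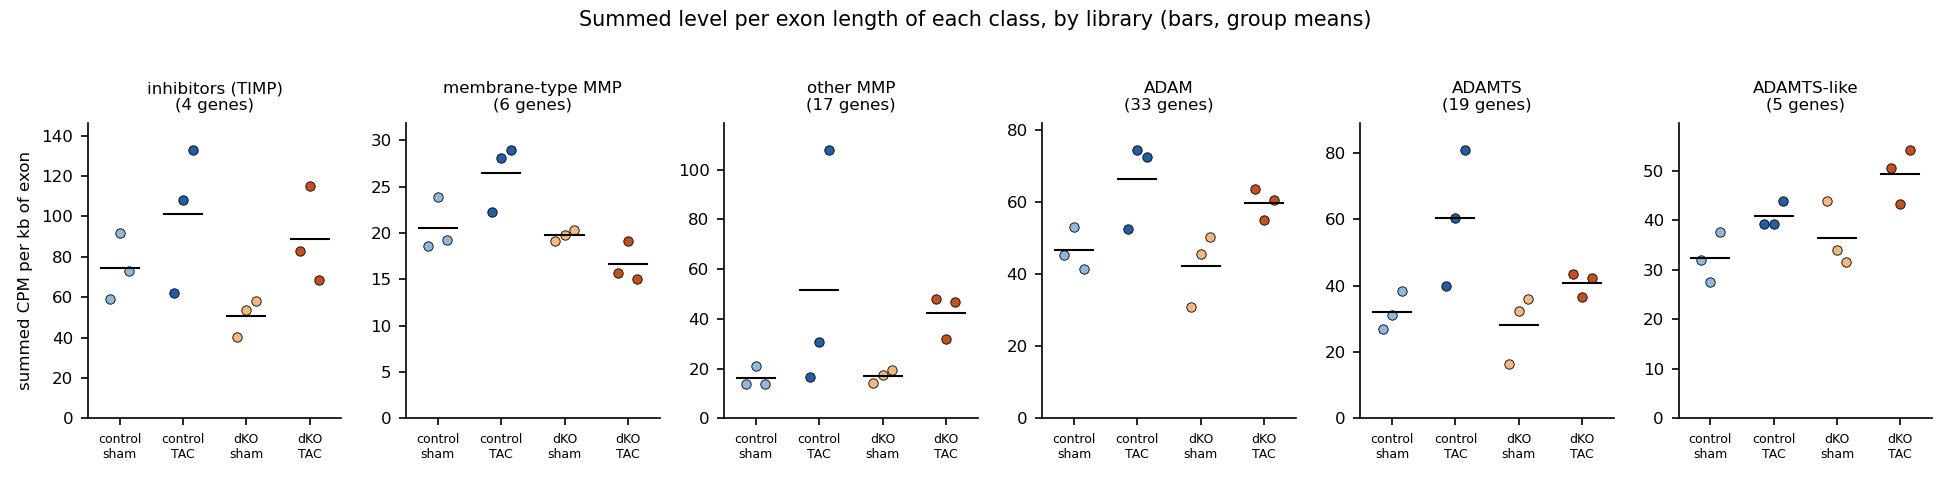
Summed CPM per kb of exon of each class (vertical axes, starting at 0) in the 4 groups, with 1 point per library and bars at group means. The point for MMPs other than membrane-type in control TAC replicate 3, at 108, stands above the other libraries, which lie between 13.8 and 47.9.

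Of the 84 genes, 51 had enough counts to be tested and 33 did not. Among the latter 15 had no count in any library, 10 had 1 to 9 counts over all 12 libraries and 8 had at least 10. They include 21 ADAM genes and 9 secreted MMP genes, and no inhibitor or ADAMTS-like gene. The most abundant of them was Mmp9, the gelatinase typical of neutrophils, with 95 counts in total. Control held 18 of them after sham and 55 after TAC, and dKO 14 and 8. Of the 55, replicate 3 held 40, and control TAC replicates 1 and 2 held 5 and 10. The counts that follow are over tested genes. Some of these passed the filter only through the groups in which they are high and could hardly be found unchanged. Examples are Adamts16, with 1 count in control sham and 0 in dKO sham, Adamts20 and Mmp24. Adamts20 had 1 to 10 counts in each sham library and 12 to 34 in each TAC library. Mmp24 had 21 to 30 counts in each dKO TAC library and 1 to 11 in each other library. Such genes stay in the counts and in the shares over all genes.

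In the control cardiomyocyte samples, which also held RNA of other cell types, 7 metalloproteinase and inhibitor genes were higher after TAC and none lower. They were the inhibitor Timp1, the MMPs Mmp14 and Mmp23, the membrane protease Adam12, and the secreted proteases Adamts2, Adamts4 and Adamts8, with increases between 4.12-fold (Mmp23) and 16.9-fold (Timp1). A gene was called when its Benjamini-Hochberg adjusted p, from edgeR's quasi-likelihood test over all 14712 tested genes, was under 0.05. The 7 called are 13.7% of the 51 tested, against 2.25% of all tested genes (1.90% higher and 0.347% lower). The median log2 change of the 51 was 0.64, against 0.00 over all genes, and 40 were positive and 11 negative. All 3 TAC libraries lay above all 3 sham libraries for 14 members (27.5%, against 11.0% of all genes) and below them for 2 (3.92%, against 10.8%). These counts rested on few libraries. No member was called without control sham replicate 1, control sham replicate 3 or control TAC replicate 2, only Adamts8 without control TAC replicate 3, and 15 without control TAC replicate 1. Over all genes the same 5 fits called 2, 3, 14, 109 and 1130 in place of 331, so the members moved with the whole table. With 1 dKO library left out, the number was 4 without dKO sham replicate 2 or any of the dKO TAC libraries and 11 without dKO sham replicate 1, because all libraries share the estimate of spread. None was called when the 6 control libraries were fitted alone, a fit that called 2 of all genes, and DESeq2 called 14 members and 939 genes. Without both libraries that stand apart 9 members and 771 genes were called, 6 of the 9 among the 7, and the others were Timp4, Adam19 and Adamts12.

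In the dKO cardiomyocyte samples 12 members changed after TAC, 10 higher and 2 lower. Timp1, Mmp23, Adam12, Adamts2 and Adamts8 rose in both genotypes, Mmp19, Adam9, Adam19, Adamts20 and Adamtsl2 also rose here, and Mmp15 and Adamts7 fell. The 12 are 23.5% of the 51 tested, against 7.39% of all genes (4.20% higher and 3.19% lower). The median log2 change was 0.66, against -0.01 over all genes, with 36 positive and 15 negative. All 3 TAC libraries were above all sham libraries for 25 members (49%, against 16.2% of all genes) and below for 4 (7.84%, against 14.5%). The 5 members called in both genotypes are 71.4% of the control calls and 41.7% of the dKO calls. The like shares over all genes are not given here, so nothing particular to the members can be read from these. Only Timp1 and Adamts8 were called without dKO TAC replicate 1 or without dKO TAC replicate 3, and Adam19 in addition without dKO sham replicate 2. Over all genes these fits called 210, 306 and 661 in place of 1087. Without both libraries that stand apart 8 members and 1580 genes were called, 6 of the 8 among the 12, and the others were Mmp24 and Adam23 (log2 -1.27; edgeR, adjusted p = 0.0155, against -0.81 ± 0.32 and 0.134 with all libraries). DESeq2 called 20 members and 2263 genes. Among the 20 was Adam5, which the filter on low counts left out of the edgeR test.

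**Figure D3:**
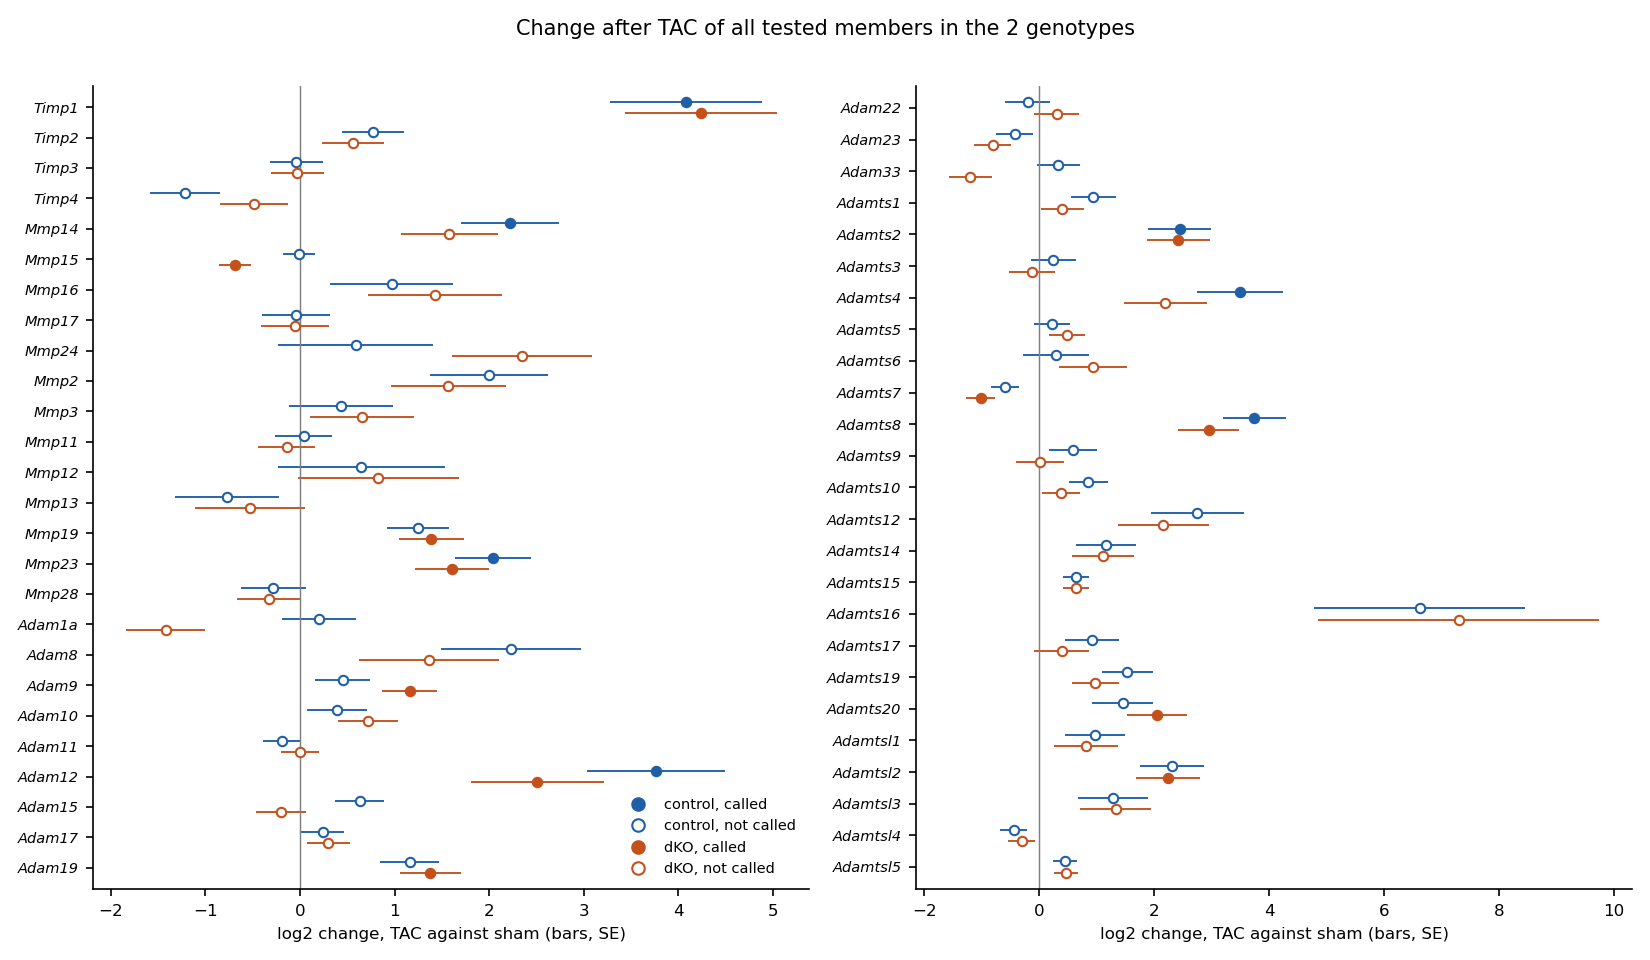
Log2 change after TAC (horizontal axes; the scales of the panels differ) of the 51 tested members, in control (blue) and dKO (orange), with bars for the SE and filled points for called members. Points of both genotypes lie mostly right of 0, with 40 positive in control and 36 in dKO, and Timp1 stands near 4 in both. The largest estimates, for Adamts16, compare with sham groups that hold 1 and 0 counts.

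Among the inhibitors Timp1, the inducible member of the family that blocks most soluble MMPs, rose in both genotypes. Timp1 (chrX:20870166-20874735, + strand, GRCm38) had 0.594, 2.48 and 0.818 CPM in control after sham and 5.09, 32.4 and 28.5 after TAC. In dKO the values were 2.52, 1.4 and 1.36 after sham and 17.2, 63.6 and 16.7 after TAC. No TAC library of Timp1 overlapped a sham library of its genotype, and the lowest after TAC was control TAC replicate 1. Its log2 change was 4.08 ± 0.80 (SE) in control and 4.24 ± 0.80 in dKO (edgeR, adjusted p = 0.0244 and 0.0108). The dKO call held in all 12 fits that left out 1 library, and without dKO TAC replicate 2 the change was 3.30, or 3.62 without both libraries that stand apart. In control it was 4.94 without control sham replicate 2. The control call was lost without control sham replicate 1 or 3 or control TAC replicate 2 or 3 (edgeR adjusted p from 0.0776 to 0.153). The other 3 inhibitors did not pass. Timp2 had 59, 83.1 and 57 CPM in control after sham and 64.4, 88.5 and 186 after TAC, with replicate 3 high and the groups overlapping. Timp3 had log2 estimates of -0.04 ± 0.28 in control and -0.03 ± 0.28 in dKO. Timp4, the inhibitor most typical of heart muscle, had 49.6, 104 and 88.1 CPM in control after sham and 36, 42.8 and 24.4 after TAC. The 3 TAC values of Timp4 lie below the sham values, and the log2 estimate of -1.22 ± 0.37 missed the threshold (edgeR, adjusted p = 0.111; 0.0294 by DESeq2, 0.0397 without the libraries that stand apart, and 0.0187 to 0.365 over the alternatives). In dKO its sham values of 58.3, 36.2 and 35 overlapped the TAC values of 40.9, 16.5 and 34.5 (log2 -0.49 ± 0.36, and 0.08 without the libraries that stand apart). Of the exon bases of Timp3, 21.3% are overlapped by Syn3 on the opposite strand, and the sources used here do not state the strand setting of the counting. Syn3 itself had 0.281 to 2.92 CPM, against 139 to 408 for Timp3.

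Among the membrane-type MMPs Mmp14 was called higher in control and Mmp15 lower in dKO. Mmp14, the collagenase of the cell surface that also activates Mmp2, had 6.99, 15.8 and 6.21 CPM in control after sham and 13.4, 43.8 and 78 after TAC. Its control TAC replicate 1 lay below control sham replicate 2, so the groups overlapped although the gene was called (log2 2.22 ± 0.52; edgeR, adjusted p = 0.0478). Without control TAC replicate 3 the estimate was 1.57. In dKO it had 7.93, 10 and 12.2 CPM after sham and 31.1, 31.9 and 27.2 after TAC, which do not overlap. The dKO estimate of 1.58 ± 0.51 did not pass (edgeR, adjusted p = 0.0757; 0.0178 by DESeq2, and 0.0102 to 0.211 over the alternatives). The control call of Mmp14 was lost in 9 of 12 fits without 1 library, held only when control sham replicate 2, control TAC replicate 1 or dKO sham replicate 1 was left out, and was lost without both libraries that stand apart (edgeR, adjusted p = 0.0533). Mmp15, a related membrane-type protease, had 91.6, 112 and 95.7 CPM in control after sham and 106, 109 and 81.6 after TAC. After sham the dKO libraries held 93.9, 95.1 and 95.7, and after TAC 53.6, 70.2 and 53.1. The dKO TAC libraries were thus lower for Mmp15 than all 9 others. It fell in dKO by 0.69 ± 0.17 on the log2 scale (edgeR, adjusted p = 0.0331), and its control estimate was -0.01 ± 0.17. The fall was lost without control sham replicate 1 or 3, dKO sham replicate 2 or 3 or dKO TAC replicate 1 or 3 (edgeR adjusted p from 0.0503 to 0.165). Without the libraries that stand apart Mmp15 was lower by a log2 of -0.84 (edgeR, adjusted p = 0.0134). Mmp24 lay near the floor after sham, with 10 counts in control sham and 11 in dKO sham, and had 1.01, 0.655 and 1.03 CPM in dKO TAC. It passed the filter through dKO TAC, where it is high, and could hardly be found unchanged. Its dKO estimate was 2.35 ± 0.74 (edgeR, adjusted p = 0.07; 0.0116 without the libraries that stand apart, and 0.0116 to 0.223 over the alternatives). Mmp16 and Mmp17 passed in neither genotype.

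Among the other MMPs Mmp23 rose in both genotypes and Mmp19 in dKO. Mmp23, which sits in the membrane by its N-terminal end until it is cleaved, had 2.24, 4.2 and 2.83 CPM in control after sham and 5.88, 11.2 and 21.1 after TAC. The dKO values were 6.27, 3.92 and 5.31 after sham and 15.8, 16.6 and 14.9 after TAC. No TAC library overlapped its sham group. The log2 change of Mmp23 was 2.04 ± 0.40 in control and 1.61 ± 0.39 in dKO (edgeR, adjusted p = 0.024 and 0.0286). The control call was lost without control sham replicate 1 or 3 or control TAC replicate 2 or 3. The dKO call was lost without dKO sham replicate 2 or 3 or any 1 of the dKO TAC libraries, and without the libraries that stand apart together (edgeR, adjusted p = 0.056). Mmp19, a secreted MMP of basement membranes, had 1.42, 2.01 and 1.45 CPM in control after sham and 2.25, 3.91 and 5.48 after TAC. In dKO the values were 1.11, 1.19 and 1.66 after sham and 3.59, 3.68 and 3.16 after TAC, again with no overlap in either genotype. It rose in dKO by 1.39 ± 0.34 (edgeR, adjusted p = 0.0295), and the control estimate of 1.25 ± 0.33 did not pass (edgeR, adjusted p = 0.0779; 0.0113 to 0.307 over the alternatives). Without both libraries that stand apart the dKO estimate for Mmp19 was 1.25 (edgeR, adjusted p = 0.0792), and the call was also lost without dKO sham replicate 1 or 2 or any 1 of the dKO TAC libraries. Genes on the opposite strand overlap 28.3% of the exon bases of Mmp19.

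Mmp2 varied widely between the control libraries after TAC. It had 29.4, 46.7 and 26.9 CPM in control after sham and 36.1, 70.3 and 307 after TAC, so that replicate 1 overlapped the sham libraries and replicate 3 stood far above. In dKO it had 26.5, 36.7 and 40.5 CPM after sham and 122, 62.3 and 124 after TAC, with no overlap. The estimates for Mmp2 were 4.01-fold in control and 2.96-fold in dKO (SE 0.62 and 0.61 on the log2 scale) and did not pass (edgeR, adjusted p = 0.12 and 0.125; 0.0138 and 0.0457 by DESeq2). The control estimate of Mmp2 shrank without control TAC replicate 3, to 0.64 on the log2 scale. Over the alternatives the adjusted p for Mmp2 lay between 0.00907 and 0.597 in control and between 0.0221 and 0.313 in dKO. The stromelysins Mmp3 and Mmp11 and the collagenase Mmp13 did not pass in either genotype, nor did the macrophage elastase Mmp12 or Mmp28.

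Among the ADAM genes Adam12 rose in both genotypes, and Adam9 and Adam19 rose in dKO. Adam12, a protease of regenerating muscle and activated stromal cells that can shed heparin-binding EGF-like growth factor, had 0.0457, 1.24 and 0.223 CPM in control after sham and 3.07, 8.79 and 8.75 after TAC. After sham the dKO libraries held 0.492, 0.683 and 0.866, and after TAC 3.89, 5.11 and 2.83. All TAC values of Adam12 exceed all sham values, and control sham replicate 1 lay under the floor of 3 counts. Its log2 change was 3.76 ± 0.73 in control and 2.51 ± 0.70 in dKO (edgeR, adjusted p = 0.024 and 0.0489). The control call was lost without control sham replicate 1 or 3 or control TAC replicate 2 or 3, and the control estimate was 5.56 without control sham replicate 2. The dKO call held in 3 of 12 fits without 1 library and was lost without any of the 6 dKO libraries or without control sham replicate 3 or control TAC replicate 2 or 3. Without the libraries that stand apart the dKO estimate was 2.11 (edgeR, adjusted p = 0.143).

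Adam19, another membrane protease with a role in heart development, had 20.1, 30.7 and 14.3 CPM in control after sham and 37.6, 60.8 and 47 after TAC. The dKO values were 8.54, 16.1 and 16.7 after sham and 41.5, 28.9 and 38 after TAC. There was no overlap for Adam19 in either genotype. It rose by 1.38 ± 0.32 in dKO (edgeR, adjusted p = 0.0241), a call lost without dKO TAC replicate 1 or 3, and the control estimate of 1.16 ± 0.31 did not pass (edgeR, adjusted p = 0.0827; 0.0406 without the libraries that stand apart, and 0.0127 to 0.337 over the alternatives). Adam9, a widely expressed sheddase, had 52.5, 51.5 and 50.9 CPM in control after sham and 53.8, 77.7 and 80 after TAC. In dKO the values were 20.8, 44 and 44.8 after sham and 90.6, 56.3 and 99 after TAC. The rise of Adam9 in dKO was 1.16 ± 0.29 (edgeR, adjusted p = 0.0336), with dKO sham replicate 1 the lowest library. Without the libraries that stand apart it was 1.09 (edgeR, adjusted p = 0.00773), and it was lost without control sham replicate 1 or 3, dKO sham replicate 2 or dKO TAC replicate 1 or 3 (edgeR adjusted p from 0.0512 to 0.132). The control estimate of Adam9 was 0.45 ± 0.29.

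Adam10 and Adam17, the main sheddases of Notch receptors, EGF family ligands and tumor necrosis factor, passed in no comparison. Adam17 had 36.4, 47.2 and 37.1 CPM in control after sham and 45, 51.8 and 45.3 after TAC, and 23.6, 43.1 and 47.5 in dKO after sham and 49.6, 43.1 and 48.4 after TAC. Its log2 estimates after TAC were 0.24 ± 0.23 in control and 0.30 ± 0.23 in dKO, and those of Adam10 were 0.39 ± 0.32 and 0.72 ± 0.32. Adam8, a protease of leukocytes, had 0.503, 1.03 and 0.149 CPM in control after sham and 0.524, 2.85 and 4.44 after TAC. Control TAC replicate 1 of Adam8 lay within the sham range, and the estimates of 2.23 ± 0.74 in control and 1.36 ± 0.74 in dKO did not pass (edgeR, adjusted p = 0.144 and 0.256). DESeq2 called the control change (adjusted p = 0.0493), and its adjusted p lay between 0.0212 and 0.47 over the alternatives.

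**Figure D4:**
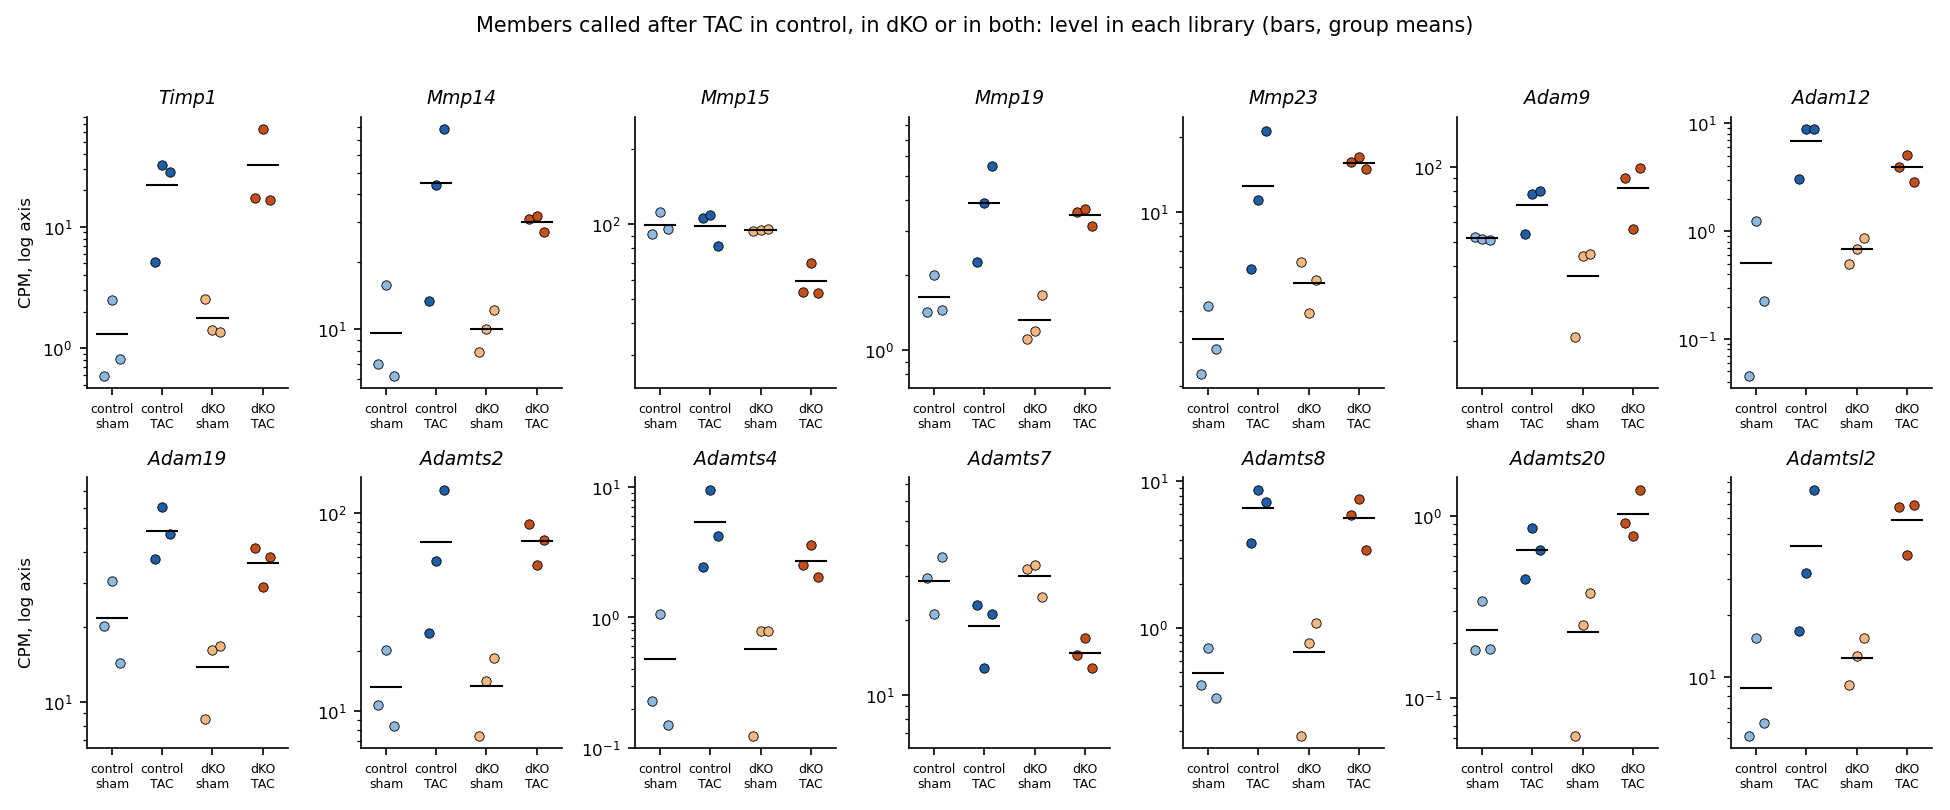
CPM on log axes of the 14 members called after TAC in control, in dKO or in both, in the 4 groups, with 1 point per library and bars at group means. TAC libraries of Timp1, Adam12, Adamts4 and Adamts8 lie above all sham libraries of their genotype, and Mmp15 is between 53.1 and 70.2 in dKO TAC against 81.6 to 112 in the other groups.

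The ADAMTS class held the member with the smallest p in both genotypes, Adamts8, a secreted protease with antiangiogenic thrombospondin repeats. Adamts8 had 0.411, 0.728 and 0.335 CPM in control after sham and 3.82, 8.79 and 7.21 after TAC. After sham the dKO libraries held 0.184, 0.791 and 1.09, and after TAC 5.85, 7.54 and 3.41. The lowest TAC library of Adamts8 was above the highest sham library in both genotypes. The log2 change was 3.74 ± 0.55 in control and 2.95 ± 0.53 in dKO (edgeR, adjusted p = 0.0123 and 0.00865). The dKO call held in all 12 fits without 1 library. The control call was lost without control sham replicate 1 or 3 or control TAC replicate 2 (edgeR adjusted p from 0.0528 to 0.0989). Without the libraries that stand apart the dKO change was 2.30.

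Adamts2, which removes the N-terminal propeptide of fibrillar procollagens, had 10.7, 20.3 and 8.37 CPM in control after sham and 24.7, 57.4 and 132 after TAC. The dKO values were 7.43, 14.2 and 18.4 after sham and 88, 55 and 73 after TAC. Its TAC and sham libraries did not overlap, and the control TAC values follow the order of the fibroblast marker sum. Mmp14 and Mmp23, also called in control, follow it too. Timp1, Adam12, Adamts4 and Adamts8 follow it only in that replicate 1 was lowest. Their highest control TAC value was in replicate 2, for Adam12 by 8.79 against 8.75 CPM in replicate 3. Adamts2 rose by 2.44 ± 0.55 in control and 2.42 ± 0.55 in dKO (edgeR, adjusted p = 0.0419 and 0.0232). The control call was lost without control sham replicate 1 or 3, control TAC replicate 2 or 3, dKO sham replicate 2 or any 1 of the dKO TAC libraries, and the control estimate was 1.65 without control TAC replicate 3. The dKO call was lost without dKO sham replicate 1 or 2 or dKO TAC replicate 1 or 3, and without both libraries that stand apart (edgeR, adjusted p = 0.0554).

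Adamts4, an aggrecanase that also cleaves versican, had 0.228, 1.07 and 0.149 CPM in control after sham and 2.43, 9.61 and 4.24 after TAC. In dKO it had 0.123, 0.791 and 0.791 after sham and 2.54, 3.62 and 2.05 after TAC. No libraries overlapped. Adamts4 rose in control by 3.49 ± 0.75 (edgeR, adjusted p = 0.0371), a call lost without control sham replicate 1 or 3, control TAC replicate 2 or 3, dKO sham replicate 2 or any 1 of the dKO TAC libraries. Leaving out control sham replicate 2 gave 4.83 in control, and leaving out control TAC replicate 2 gave 2.80. The dKO estimate of 2.19 ± 0.72 did not pass (edgeR, adjusted p = 0.0805; 1.53 without the libraries that stand apart, with an adjusted p of 0.24; 0.019 to 0.24 over the alternatives).

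Adamts20 was weakly expressed and passed the filter through its TAC libraries, so it could hardly be found unchanged. It had 0.183, 0.342 and 0.186 CPM in control after sham and 0.449, 0.854 and 0.653 after TAC. In dKO the values were 0.0614, 0.252 and 0.376 after sham and 0.913, 0.779 and 1.4 after TAC. It rose in dKO by 2.05 ± 0.52 (edgeR, adjusted p = 0.0343), with no overlap in either genotype, and the control estimate was 1.45 ± 0.53 (edgeR, adjusted p = 0.176; 0.0786 to 0.524 over the alternatives). The dKO call of Adamts20 was lost without control sham replicate 1 or 3, dKO sham replicate 1 or 2 or dKO TAC replicate 1 or 3. Adamts7, a protease of cartilage oligomeric matrix protein and thrombospondin, went the other way. It had 29.3, 21.2 and 35.6 CPM in control after sham and 23, 12.8 and 21.1 after TAC, and 32.1, 33.1 and 24.7 in dKO after sham and 14.5, 16.9 and 12.8 after TAC. Adamts7 fell in dKO by 1.02 ± 0.25 on the log2 scale (edgeR, adjusted p = 0.03), without overlap, and its control libraries overlapped (-0.60 ± 0.25). The fall was lost without dKO sham replicate 1 or 2 or dKO TAC replicate 1 or 3, and without both libraries that stand apart (edgeR, adjusted p = 0.0511).

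The remaining ADAMTS genes did not pass by edgeR over all 12 libraries. Adamts1 had 72.5, 75.9 and 128 CPM in control after sham and 120, 184 and 225 after TAC, with 1 sham library above the lowest TAC library. Its estimates were 0.94 ± 0.39 in control and 0.40 ± 0.38 in dKO. Those of the aggrecanase Adamts5 were 0.22 ± 0.31 and 0.48 ± 0.31, and those of the versicanase Adamts9 were 0.58 ± 0.42 and 0.01 ± 0.42. Adamts16 held 1 count in control sham and 0 in dKO sham. After TAC it had 0, 0.605 and 4.83 CPM in control and 0.947, 0.405 and 0.903 in dKO, and it did not pass (edgeR, adjusted p = 0.102 and 0.0917; 0.00416 to 0.366 and 0.00983 to 0.23 over the alternatives, and called in both genotypes with no filter on low counts). Adamts12 followed the order of the fibroblast markers in control TAC, with 2.02, 5.73 and 12.1 CPM after 0.731, 1.24 and 0.967 in sham (log2 2.75 ± 0.81; edgeR, adjusted p = 0.107). It was called in control by DESeq2 (adjusted p = 0.0123), without the libraries that stand apart (edgeR, adjusted p = 0.0321) and in 5 of 19 alternatives in all, and by DESeq2 in dKO (adjusted p = 0.0375). Of the 17 tested ADAMTS genes, 16 had positive estimates in control and 15 in dKO, with a median of 0.94 in each.

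Of the ADAMTS-like genes Adamtsl2, a fibrillin-binding protein, rose in dKO. Adamtsl2 (chr2:27079379-27108981, + strand) had 5.12, 15.4 and 5.95 CPM in control after sham and 16.7, 32.3 and 82.6 after TAC. After sham the dKO libraries held 9.15, 12.6 and 15.4, and after TAC 68.2, 39.3 and 69. No libraries overlapped in either genotype. The change of Adamtsl2 was 2.24 ± 0.55 in dKO (edgeR, adjusted p = 0.0309), and in control 2.31 ± 0.56 (edgeR, adjusted p = 0.0537; 0.000728 to 0.258 over the alternatives). The dKO call was lost without dKO sham replicate 1 or 2 or dKO TAC replicate 1 or 3, and without both libraries that stand apart (edgeR, adjusted p = 0.0641). Adamtsl4 and the abundant Adamtsl5 did not pass, with estimates in control of -0.45 ± 0.24 and 0.45 ± 0.21.

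Between the genotypes after sham surgery no member passed the test, and few genes of the whole table did. edgeR called 0 of 51, against 0.0680% of all tested genes, and DESeq2 called 0 members and 54 genes. At an unadjusted p under 0.05 there were 2 members, against 9.25% of all genes. These were Timp3 and Timp4, with negative log2 estimates of -0.61 ± 0.28 and -0.90 ± 0.36 that did not pass (edgeR, adjusted p = 0.507 for both). All 3 dKO libraries lay above all control libraries for 2 members (3.92%, against 9.27% of all genes) and below for 4 (7.84%, against 9.42%). Timp3 was among the latter, with 284, 408 and 347 CPM in the control and 139, 259 and 280 in the dKO libraries. The value of 139 is from dKO sham replicate 1, which stands apart. The median over the 51 was -0.04, against 0.02 for all genes.

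After TAC most members had lower estimates in dKO than in control, and none passed by edgeR, against 0.428% of all genes. Of the 51, 36 were negative and 15 positive, with a median of -0.34 against -0.03 over all genes, and 6 had an unadjusted p under 0.05, against 8.87% of all genes. The libraries of the genotypes did not overlap for 7 members that were lower in dKO (13.7%, against 7.79% of all genes) and 2 that were higher (3.92%, against 9.80%). The smallest p belonged to Mmp15, with an estimate of -0.75 ± 0.17 (edgeR, adjusted p = 0.101; 0.00184 to 0.491 over the alternatives). Mmp15 was called by DESeq2 (adjusted p = 0.00184), which called no other member, and by edgeR without dKO sham replicate 1 or without both libraries that stand apart (adjusted p = 0.0157 for the latter). Timp3 again had a negative estimate that did not pass (-0.61 ± 0.28, edgeR adjusted p = 0.561). The other 4 with an unadjusted p under 0.05, named after their values were seen except for Adamts9, were Adamts9 (-1.11 ± 0.42), Adam1a (-1.43 ± 0.42), Adam33 (-0.99 ± 0.37) and Mmp24 (2.06 ± 0.69). Mmp24 passed the filter through dKO TAC, the higher group. The inducible Timp1 had an estimate of 0.57 ± 0.67, which was -0.37 without the libraries that stand apart, and Adamts8 one of -0.24 ± 0.46. In the same comparison the estimates of all 10 fibroblast markers (median -0.59) and all 10 macrophage markers (median -0.36) were negative. None of either list was called by edgeR or DESeq2 or had an unadjusted p under 0.05. All 8 endothelial markers (median -0.38) and 7 of 8 smooth muscle and pericyte markers (median -0.28) were negative too, none passed by edgeR (0 and 1 at an unadjusted p under 0.05), and DESeq2 called Acta2 of the latter. The part of these cells in the lower estimates of the members was not tested.

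The change after TAC was also compared between the genotypes directly, by the interaction of genotype and surgery. edgeR called 0 of 51 members and 0 of 14712 genes (0%), DESeq2 called 0 members, and 4 members had an unadjusted p under 0.05, against 4.74% of all genes. These 4 were chosen by that p. They were Adam33 (-1.53 ± 0.52), Adam1a (-1.63 ± 0.57), Mmp15 (-0.68 ± 0.24) and Adam15 (-0.83 ± 0.36), each with an edgeR adjusted p of 0.841. Adam15 had 74.4, 103 and 62.2 CPM in control after sham and 93.9, 150 and 128 after TAC, and 92.1, 93.5 and 119 in dKO after sham and 86.4, 114 and 65.3 after TAC, with every pair of groups overlapping. Adam33 had 0.913, 1.09 and 0.862 CPM in dKO TAC, below all 9 other libraries, which lay between 1.24 and 3.26. Adam1a shares 63.7% of its exon bases with other genes on the same strand, so its counts are uncertain. The interaction, the TAC change in dKO and the genotype difference after TAC use the same dKO TAC libraries, and the low Mmp15 values enter all 3. For members called in only 1 genotype, such as Mmp14, Adamts4 and Adam9, the interaction estimates were -0.64 ± 0.71, -1.30 ± 1.02 and 0.71 ± 0.41 and did not pass, so a difference between genotypes in their response was not shown.

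**Figure D5:**
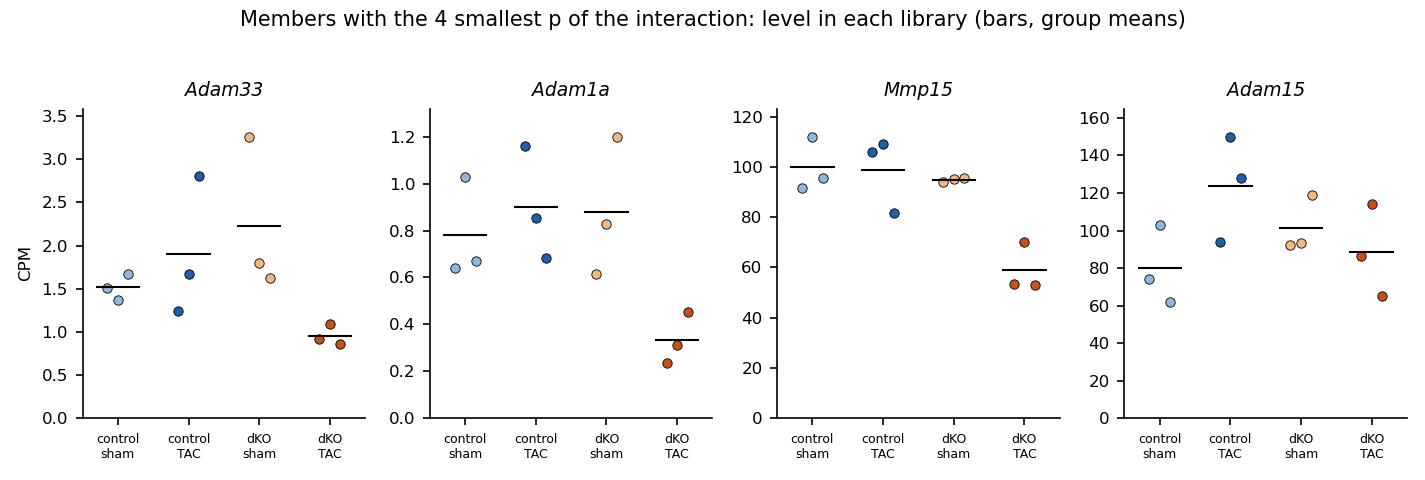
CPM (vertical axes, starting at 0) of the 4 members with the smallest p of the interaction, in the 4 groups, with 1 point per library and bars at group means. The dKO TAC libraries are the lowest for Adam33, Adam1a and Mmp15, whereas those of Adam15 overlap every other group.

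Genes that act with the metalloproteinases were taken as 4 lists, drawn up with earlier results of these data known. Of 19 matrix substrates, 7 rose after TAC in control and 9 in dKO, none fell, and all 19 estimates were positive in each genotype, with medians of 2.74 and 2.71. These are 36.8% and 47.4% of the list, against 2.25% and 7.39% of all genes. Versican (Vcan), the proteoglycan cleaved by several ADAMTS proteases, rose by 2.56 ± 0.53 in control and 2.69 ± 0.54 in dKO (edgeR, adjusted p = 0.0325 and 0.0138). Thrombospondin 4 (Thbs4), a matrix protein of loaded heart muscle, rose from 3.59 to 106 CPM in control and from 4.31 to 141 in dKO (edgeR, adjusted p = 0.0108 and 0.00371). The collagen genes Col1a1, Col1a2 and Col3a1 rose in both genotypes, and each is also a fibroblast marker. Of 26 tested activators and other inhibitors of proteolysis, 5 rose in control, and 2 rose and 1 fell in dKO, with medians of 0.73 and 0.48 (19.2% and 11.5% of the list called, against the same shares of all genes). In control they were Plaur, the urokinase receptor (1.71), Serpinf1 (2.18), the collagen chaperone Serpinh1 (1.14), the procollagen C-proteinase Bmp1 (1.12) and its enhancer Pcolce (1.46). In dKO, Serpinf1 (2.05) was among those that rose, and Tll2 fell.

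Of 16 tested ligands and receptors that ADAM proteases shed, 2 rose in control and 5 in dKO, with medians of 0.74 and 0.71 (12.5% and 31.2% called). Hbegf, the heparin-binding EGF-like growth factor, rose from 23.1 to 60.8 CPM in control and from 22.6 to 66.9 in dKO (log2 1.39 ± 0.29 and 1.57 ± 0.29; edgeR, adjusted p = 0.0321 and 0.0105). The related ligand epiregulin (Ereg) rose in both genotypes from sham means under the floor of 3 counts to 1.05 and 0.461 CPM. Tgfa (1.31), Cx3cl1 (1.12) and the hyaluronan receptor Cd44 (1.95) rose in dKO. Of the 9 tested partners of ADAM10 and ADAM17, such as iRhoms and tetraspanins, none passed by edgeR in either genotype, with 3 in control and 2 in dKO at an unadjusted p under 0.05, and DESeq2 called Sh3pxd2b in control. In the genotype comparisons and the interaction no gene of the 4 lists passed by edgeR or DESeq2, and 0 to 4 genes of a list had an unadjusted p under 0.05.

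The promoters were read because the deleted factors act with serum response factor, which binds the CArG box. Windows of 250 bases before the transcript start were taken from RefSeq (GRCm38.p6), where 53 of the 84 members matched. Both strands were searched for the CArG box, for the AP-1 heptamer TGANTCA and for the TEAD hexamer CATTCC. A CArG box was found in 0 of 53 members and 0 of their 58 windows, against 1.47% of 32851 windows of all genes. At so low a share, 0 in so few windows cannot be told apart from the share of all genes. The AP-1 heptamer was found in 12 of 53 members and 12 of their 58 windows, against 6.75% of all windows. Of the 33 tested members with a window, 4 held the heptamer. The TEAD hexamer was found in 3 of 53 members and 3 of the 58 windows, against 12.6%. Members with the heptamer include the MMP genes Mmp3, Mmp7, Mmp10, Mmp12, Mmp13 and Mmp20, of which Mmp7, Mmp10 and Mmp20 had too few counts to be tested. Only 8 of the 14 called members had a window, and among these 8 only Adam19 held the heptamer. The 2 called members that held any of these letters, Timp1 and Adam19, are shown, with the matches in capitals.
Timp1, chrX:20869916-20870165, + strand: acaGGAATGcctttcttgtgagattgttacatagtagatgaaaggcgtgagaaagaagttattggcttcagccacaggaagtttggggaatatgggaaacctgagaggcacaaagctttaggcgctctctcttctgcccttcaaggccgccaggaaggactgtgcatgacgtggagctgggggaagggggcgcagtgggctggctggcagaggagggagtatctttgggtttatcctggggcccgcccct
Adam19, chr11:46055734-46055983, + strand: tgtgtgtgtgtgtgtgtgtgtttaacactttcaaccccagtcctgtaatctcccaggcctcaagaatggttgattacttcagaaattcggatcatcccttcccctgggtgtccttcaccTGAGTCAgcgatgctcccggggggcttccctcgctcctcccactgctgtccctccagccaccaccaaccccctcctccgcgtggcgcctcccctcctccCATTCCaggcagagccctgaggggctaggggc
In Timp1 the capitals mark the TEAD hexamer read on the opposite strand, 247 to 242 bases before the start. In Adam19 they mark the AP-1 heptamer, 131 to 125 bases before the start, and the TEAD hexamer, 32 to 27 bases before it. The matches do not overlap. They describe letters in these windows, and whether a factor binds them was not measured.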

How the data were processed

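Members and gene lists were chosen with earlier results of these data known. RNA came from cardiomyocytes released by Langendorff perfusion and sedimented for 10 min at 37 °C, and the stranded poly(A) libraries gave single-end reads of 100 nt, per the labels' protocols. Replicates are separate samples by their labels; nothing says that they are separate mice, so p-values measure the spread between these samples. The protocols place surgery at 10 weeks of age and the design text at 8. The deposited values are raw read counts per gene, made with Trimmomatic 0.36, STAR 2.5.2b and featureCounts of Subread 1.5.0p3 on GRCm38.p5, per the submitters' processing notes. Not given in the sources used here: annotation, strand setting and the treatment of multiply mapped reads.

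The counts were fitted with edgeR 4.0.16 (R 4.3.3; TMM, filterByExpr with a minimum count of 10, quasi-likelihood F test), with all 12 libraries in 1 fit of 4 group means and 8 residual degrees of freedom, and p-values were adjusted by Benjamini-Hochberg over 14712 genes. SE is the log2 change divided by the square root of F. Log2 changes are TAC against sham, dKO against control, and the dKO minus the control change. Named genes are a list of 25 central members, all called members and the 5 highest per kb. Others were named after their values were seen. Exon lengths, coordinates and coding sequences are from the mouse GENCODE release M21. Alternatives were DESeq2 1.42.0 and its size factors, no filter, only the 2 groups compared, a replicate block, removal of a transcript length trend, and leaving out libraries. No pair of libraries was a duplicate. The steps were tested on simulated data. A gene of the list of activators and other inhibitors is counted but not reported by name here.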

Additional observations from a re-analysis of the deposited data

How the results depend on the processing

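With DESeq2 size factors, removal of the transcript length trend or a replicate block, the number of members called stayed within 1.5 times the reported 7 for TAC in control and 12 for TAC in dKO. For TAC in control it was 15 with no filter on low counts, 14 with the DESeq2 test and 0 with only the 2 groups compared, and between 0 and 15 without 1 library. For TAC in dKO it was 20 with the DESeq2 test and between 2 and 15 without 1 library. For dKO after TAC it was 1 (Mmp15) with the DESeq2 test and without the pair of libraries that stand apart, and between 0 and 1 without 1 library. It was 0 under every alternative for dKO after sham and for the interaction. Of 361 alternatives over the 19 calls, 251 kept the call, 110 lost it and 0 changed its sign. Correlations between the deviations of same-numbered libraries from their group means lay between -0.47 and 0.35. Differently numbered libraries were not compared, so with 3 libraries per group this cannot settle whether the numbers pair samples. With a replicate block 5 members were called for TAC in control and 13 for TAC in dKO, and 0 in the other comparisons; Mmp14 and Adamts2 were lost in control and Adamts4 was gained in dKO. Depth limits the weakly expressed members, of which 33 were not tested.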
